A study of Mus musculus with 6 samples.

Results

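Proteins that the liver secretes enter the endoplasmic reticulum (ER), are cut, glycosylated and folded there, and leave for the Golgi in coated vesicles. The genes described here are 44 subunits and factors of that route, chosen by gene symbol from the 16140 genes of the table. They comprise 7 genes of signal recognition, 15 of translocation and signal peptide cleavage, 7 of the oligosaccharyltransferase that attaches N-glycans, and 15 of transport between ER and Golgi. All 44 were in the table, and 43 had enough counts to be tested; Kdelr3 did not.

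The data are poly(A)-selected RNA-seq of bulk mouse liver, 3 libraries from mice with liver-specific loss of Selenoo (the gene of the selenoprotein SelO) and 3 from controls, all on a normal diet. Controls had the genotype Selofl/fl, floxed alleles without Cre. Knockouts were Selofl/fl Alb-Cre, floxed alleles with Cre driven by the albumin promoter, which is active in hepatocytes, so other liver cells keep the gene. Since only the knockouts carry Cre, an effect of Cre and one of Selenoo loss cannot be told apart. Neither age nor sex is stated in the labels used. Whether each library comes from its own mouse is not spelled out there, so the p-values cover the spread among these libraries, which may be technical. The comparison addresses transcript levels in livers with both Cre and loss of SelO, against floxed livers without Cre.

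In the cell, a ribosome whose nascent chain carries a signal peptide is stopped and guided to the ER by the signal recognition particle (SRP) and its receptor. The chain passes through the Sec61 channel while signal peptidase removes the signal and the oligosaccharyltransferase adds glycans to asparagines. COPII vesicles then carry cargo forward, and COPI vesicles return ER residents that KDEL receptors have captured. Hepatocytes, which make most plasma proteins, depend on this route, and many of its genes are known targets of the ER stress factors XBP1 and ATF6.

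Total counts were 15550287 to 18680196 per library, and 3 counts, the limit that a count of 0 allows, were 0.161 to 0.193 CPM, the count scaled to library size. Selenoo counts were 1413, 1630 and 1852 in controls and 117, 163 and 135 in knockouts. Alb, the albumin gene that marks hepatocytes, had 1965989 to 2550222 counts, in keeping with the tissue label. Control libraries were more dispersed than knockouts. The median SD of log2 CPM over all tested genes was 0.226 in controls and 0.139 in knockouts. Transcript length went with a library's deviation from the mean to a varying degree. Across 11946 genes, Spearman's rho of that relation was 0.27 in control replicate 3 and knockout replicate 1, 0.085 and 0.088 in the other knockouts, and -0.29 and -0.22 in control replicates 1 and 2. These correlations are across genes, which are not independent replicates.

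Comparing knockout with control, 0 of the 43 tested members passed edgeR's quasi-likelihood test at an adjusted p under 0.05, in either direction. Over all genes 1.49% passed (181 of 12173; 0.715% lower and 0.772% higher), so a count of 0 among 43 is near the background. At an unadjusted p under 0.05 there were 4 members with lower values (Spcs2, Srp54a, Sec23b and Sec61a1) and 0 with higher values. That is 9.30% of the members for lower values, against 9.26% of all tested genes, and 0 against 9.27% for higher values. Every one of the 43 intervals (95%) for the log2 fold change lay within 1 log2 unit of 0, as did 78.8% of the intervals of all tested genes. Interval width depends on a gene's counts, and the background was not matched to the members by count, so these shares cannot be compared directly. The interval reaching farthest from 0 was that of Spcs2, from -0.999 to -0.33, and on the higher side that of Spcs1, up to 0.63.

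Small negative differences were common all the same. Of the 43 members 34 had a negative log2 fold change (79.1%, against 52.2% of all tested genes), and the median was -0.14 against -0.02 over all genes. In 10 members all knockouts lay below all controls (23.3%, against 11.9% of all genes), and in 1 member, Sec63, all lay above (2.33%, against 13.3%). By step, the median log2 fold change was -0.27 for signal recognition, -0.15 for translocation, -0.08 for N-glycosylation and -0.14 for ER to Golgi transport. These counts and medians describe the genes and were not tested, and the step medians moved when 1 library was left out. Without control replicate 1 they were -0.14 for signal recognition, -0.04 for translocation, -0.065 for N-glycosylation and -0.15 for ER to Golgi transport, which was then the lowest. Without control replicate 3 the median of signal recognition was -0.39. Translocation was at -0.075 without knockout replicate 1. N-glycosylation was at 0.0024 without control replicate 2 and -0.015 without knockout replicate 1. After removing length and GC trends library by library, 30 of 43 were negative and the members' median was -0.09, with signal recognition at -0.15, translocation at -0.048 and ER to Golgi transport at -0.088. Of all genes, 50.4% were negative with these trends removed. Under the other settings tried, 31 to 34 members were negative, against 50.2% to 58.3% of all genes.

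**Figure D1:**
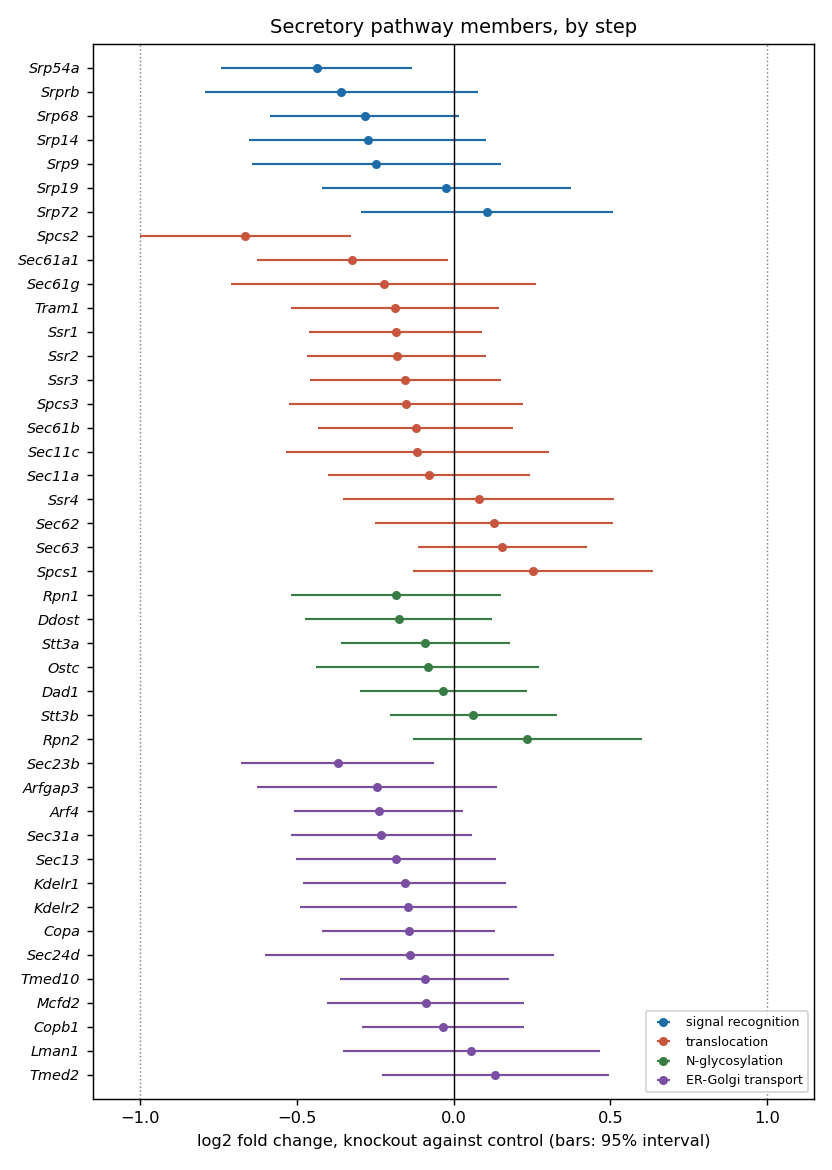
Log2 fold change of knockout against control livers (x axis) for the 43 tested members (y axis), coloured by step; points are edgeR estimates and bars 95% intervals, with dotted lines 1 log2 unit either side of 0. Most points lie slightly left of 0, the lowest is Spcs2 at -0.66, and no interval crosses the dotted lines.

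Spcs2 stood lowest. It encodes an accessory subunit of signal peptidase, the membrane protease that removes signal peptides inside the ER. The gene (NCBI Gene 66624) lies on chromosome 7, 99837569 to 99870340 on GRCm38 in the deposited table. Its counts were 1175, 1276 and 1066 in controls and 752, 747 and 759 in knockouts. Scaled to library size these were 78.8, 65.9 and 55.3 CPM in controls and 40.4, 42.7 and 43.1 CPM in knockouts. All knockouts were below all controls, and they lay close together while the controls were spread out. The means were 66.7 ± 11.8 and 42.1 ± 1.46 CPM (SD, n = 3 each). The log2 fold change was -0.66 ± 0.15 (SE), a difference of -36.9% with an interval from -50.0% to -20.4%. With an adjusted p of 0.0628, edgeR did not call it.

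Whether Spcs2 passed depended on the analysis. Its adjusted p was 0.00545 in the DESeq2 Wald test, where 5.26% of all genes passed (2.18% with lower values). In edgeR it was 0.0494 without the low-count filter, where 330 of 16128 genes passed. Without control replicate 3 it was 0.0186, and 668 genes passed. Both fits called more genes than the 181 of 12173 given above. At the looser threshold of an adjusted p under 0.1, which 4.21% of all genes passed in edgeR, Spcs2 was the only member called. Over all alternatives it ran from 0.00545 to 0.244, with log2 fold changes between -0.78 and -0.53. In the authors' deposited table Spcs2 had a log2 fold change of -0.66 with a q value of 0.00729, and it was the only member there with a q under 0.05. Of all genes in the authors' deposited table, 3.47% had such a q and 1.44% had it with lower values. No exon of Spcs2 overlaps another annotated gene in GENCODE, whose exons may differ from the gene model of the deposited table. The annotation also holds a pseudogene, Spcs2-ps, on chromosome 2, and the counting may divide reads between copies.

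The start-site region of Spcs2 is shown because this gene had the largest difference. The 100 bases upstream of its RefSeq start (GRCm38.p6, chr7:99858884-99858983, minus strand) read as follows, with a CCAAT box in capitals. Such a box on either strand is common, and 37.4% of all 32851 promoter windows of 300 bases held one. The printed bases lie within the span of Spcs2 in the deposited table, which reaches 99870340, so that gene model starts farther upstream.
Spcs2: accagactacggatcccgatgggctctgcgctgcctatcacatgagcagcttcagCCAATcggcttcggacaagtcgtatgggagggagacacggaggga

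The other 4 subunits of signal peptidase had no difference of that size. Sec11a and Sec11c encode the alternative catalytic subunits, and their log2 fold changes were -0.08 ± 0.14 and -0.12 ± 0.19 (SE). Spcs3, an accessory subunit needed for catalysis, was at -0.15 ± 0.17. Spcs1, a small accessory subunit, had the highest log2 fold change of all members with the 6 libraries, 0.25 ± 0.17, but without control replicate 1 it was at 0.10, below Sec62, Ssr4 and Sec63. Its CPM were 24.0, 35.3 and 33.4 in controls and 32.3, 37.1 and 41.2 in knockouts, and the groups overlapped. Exons of Spcs1 overlap those of Glt8d1 on the other strand over 16.3% of their length, and without a known strand setting these reads cannot be told apart. Per transcript length, the ratio of Spcs2 to Sec11a in TPM, a transcript level scaled by length and library, was 1.63, 1.45 and 1.33 in controls and 0.99, 0.85 and 0.94 in knockouts, with no overlap. The ratio of Spcs2 to Spcs3 was 6.62, 3.71 and 2.80 in controls and 2.79, 2.52 and 2.81 in knockouts, with overlap. That of Spcs2 to Spcs1 was 1.599, 0.85 and 0.73 against 0.54, 0.49 and 0.47, without overlap. The catalytic pair kept a Sec11a to Sec11c TPM ratio of 1.28 to 1.61 over the 6 libraries.

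**Figure D2:**
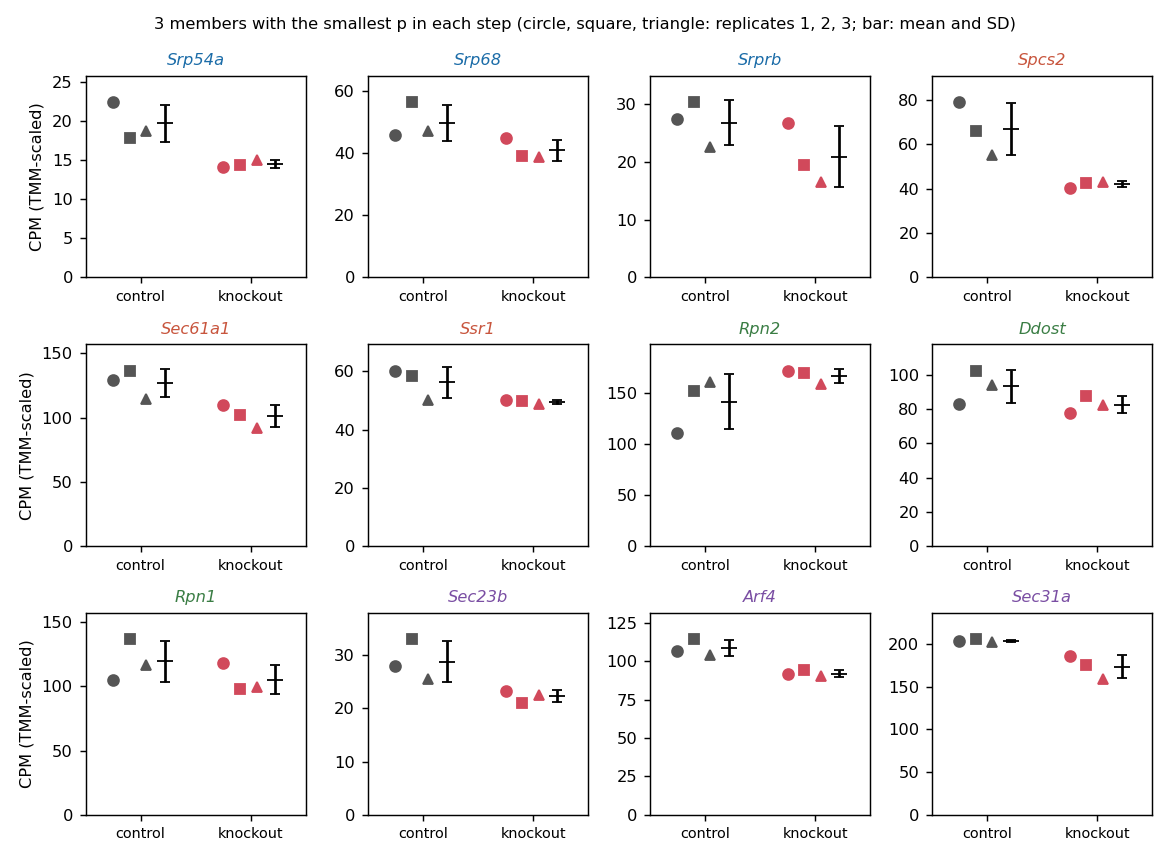
CPM scaled by TMM factors (y axis, from 0) in each control (grey) and knockout (red) library for the 3 members with the smallest p in each step; symbols mark replicates 1, 2 and 3 and black bars the mean and SD. In Spcs2 the knockouts sit at 40.4 to 43.1 CPM, below all controls, whereas in Srprb, Rpn1, Rpn2 and Ddost the groups overlap.

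Among the signal recognition genes, Srp54a had the lowest log2 fold change. It encodes the GTPase subunit of SRP that binds the signal peptide (NCBI Gene 24067; chromosome 12, 55080476 to 55115367). Its CPM were 22.4, 17.9 and 18.8 in controls and 14.1, 14.4 and 15.1 in knockouts. The groups did not overlap, and the log2 fold change was -0.44 ± 0.14 (SE; interval -0.74 to -0.13), and edgeR's adjusted p was 0.135. Mouse chromosome 12 carries adjacent copies of this gene, and their reads cannot be assigned with certainty. Srp54b was at 13.6, 21.2 and 29.8 CPM in controls and 26.4, 19.5 and 18.1 CPM in knockouts. Srp54c had 17.2, 19.3 and 18.0 CPM against 12.6, 12.6 and 16.7 CPM. So the low values were seen in Srp54a and Srp54c, and the groups of Srp54b overlapped. When the counts of the copies were summed, the log2 fold change was -0.25 and edgeR's adjusted p 0.338, a difference smaller by more than 1.5 times.

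Srp68 and Srp72 encode a pair of subunits that bind each other on the SRP RNA. For Srp68 the CPM were 45.8, 56.4 and 47.0 in controls and 44.8, 39.0 and 38.9 in knockouts, just without overlap (-0.28 ± 0.13, log2 and SE; adjusted p = 0.298; -0.18 without control replicate 2). Srp72 was the only signal recognition gene with a positive value, 0.11 ± 0.18. It had 66.4, 92.8 and 109 CPM in controls and 96.3, 100.3 and 91.9 CPM in knockouts, so that control replicate 1 was the lowest of the 6. Without that library its log2 fold change was -0.065. Srprb, the membrane anchor of the SRP receptor, had 27.4, 30.3 and 22.6 CPM in controls and 26.7, 19.5 and 16.5 CPM in knockouts. Its difference (-0.36 ± 0.19; adjusted p = 0.354) was -0.57 without knockout replicate 1 and -0.21 without knockout replicate 3, and Srprb shares 20.7% of its exon length with Gm20425 on the same strand. The groups also overlapped for Srp9 (-0.25 ± 0.18) and Srp14 (-0.27 ± 0.17), which together halt elongation, and for Srp19 (-0.02 ± 0.18), an assembly subunit.

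Sec61a1 (NCBI Gene 53421; chromosome 6, 88503605 to 88518800), the pore-forming subunit of the translocation channel, had 129, 136 and 115 CPM in controls and 110, 102 and 92.2 CPM in knockouts. All knockouts were below all controls, at -0.32 ± 0.14 (log2 and SE; interval -0.63 to -0.02; adjusted p = 0.242 in edgeR's test). Its small partners Sec61b (-0.12 ± 0.14) and Sec61g (-0.22 ± 0.22) had overlapping groups. Sec62 and Sec63 act with the channel on chains that are imported after synthesis, and both were on the positive side. Sec63 had 104, 103 and 100.5 CPM in controls and 119, 114 and 108 CPM in knockouts, without overlap (0.16 ± 0.12; adjusted p = 0.508). Sec62 was at 0.13 ± 0.17 with overlap.

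Ssr1 to Ssr4 encode the translocon-associated protein complex beside the channel, which helps some signal peptides to engage. Ssr1 had 60.2, 58.3 and 50.2 CPM in controls and 50.1, 49.7 and 48.6 CPM in knockouts. The groups were apart by a hair, control replicate 3 lying next to knockout replicate 1 (-0.18 ± 0.12; adjusted p = 0.443). Ssr2 (-0.18 ± 0.13), Ssr3 (-0.15 ± 0.14) and Ssr4 (0.08 ± 0.19) overlapped between groups, as did Tram1 (-0.19 ± 0.15), a channel-associated protein that contacts nascent chains.

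In the N-glycosylation step the groups overlapped in all 7 genes, while over all tested genes 25.2% had groups apart in either direction. With 7 genes this count says little about the step, and the steps were not tested against each other. Rpn2 (NCBI Gene 20014; chromosome 2, 157279098 to 157326318), a shared subunit of the oligosaccharyltransferase, had the highest value of the step. Its CPM were 111, 152 and 161 in controls and 172, 169 and 158 in knockouts. The difference of 0.23 ± 0.16 (log2 and SE; adjusted p = 0.459 in edgeR's test) came mainly from the low value of control replicate 1, without which it was 0.09. Rpn1, a shared subunit that contacts substrate proteins, had 105, 136 and 117 CPM against 118, 98.1 and 99.6 CPM (-0.18 ± 0.15; adjusted p = 0.533). Without control replicate 2 it was -0.075. For Ddost, which encodes a further shared subunit, 83.1, 102 and 93.9 CPM stood against 77.6, 87.4 and 82.2 CPM (-0.18 ± 0.13; adjusted p = 0.495), and -0.10 remained without control replicate 2. Stt3a and Stt3b are the catalytic subunits of the separate enzymes that act during and after translocation. Both were near 0, at -0.09 ± 0.12 with an interval from -0.36 to 0.18, and 0.06 ± 0.12 with an interval from -0.20 to 0.33. Their TPM ratio, Stt3a to Stt3b, was 0.94, 1.07 and 0.94 in controls and 0.81, 0.93 and 0.94 in knockouts. Dad1 (-0.03 ± 0.12), a shared subunit, and Ostc (-0.08 ± 0.16), which belongs to the Stt3a enzyme, also gave values close to 0.

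In the COPII coat, Sec23b had the lowest value of the transport step. It encodes a GTPase-activating subunit of the inner coat (NCBI Gene 27054; chromosome 2, 144556229 to 144590753). Its CPM were 27.9, 32.9 and 25.4 in controls and 23.2, 21.03 and 22.5 in knockouts. The groups did not overlap, at -0.37 ± 0.14 (log2 and SE; interval -0.68 to -0.06; adjusted p = 0.197 in edgeR's test). Sec31a, of the outer coat, was tightly grouped in controls at 204, 206 and 202 CPM, and all knockouts lay lower at 186, 176 and 159 CPM (-0.23 ± 0.13; adjusted p = 0.369). Its outer coat partner Sec13 was at -0.18 ± 0.14 and the cargo-binding inner subunit Sec24d at -0.14 ± 0.20, both with overlap. On the log2 scale Sec24d had the largest SD among controls of all members, 0.456, its CPM going from 49.4 CPM in replicate 1 to 91.0 CPM in replicate 3. Among COPII genes outside the set, Sec23a, the paralog of Sec23b, went the other way, with 53.2, 56.2 and 71.3 CPM in controls and 77.2, 75.7 and 84.2 CPM in knockouts (0.39 ± 0.15; adjusted p = 0.199). The difference between the paralogs was not tested.

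Cargo receptors showed no common direction. Lman1 and its partner Mcfd2 form the receptor that carries coagulation factors out of the ER, and they were at 0.06 ± 0.18 and -0.09 ± 0.14 (log2 and SE). Lman1 in control replicate 1 was 112 CPM, against 152 and 181 in the other controls and 144 to 167 in knockouts. Tmed2, a coat-binding cargo receptor of the TMED family, had the highest value of the transport step, 0.13 ± 0.16. It had 92.1, 131 and 131 CPM in controls and 134, 126 and 128 CPM in knockouts, and without control replicate 1 its log2 fold change was -0.017. Tmed10, its partner, was at -0.09 ± 0.12, with knockouts at 95.9 to 97.7 CPM just below controls at 98.8 to 109 CPM.

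All 6 tested genes of retrieval from Golgi to ER had negative values, down to -0.24, although Kdelr2 was at 0.017 without control replicate 1. Arf4, a small GTPase of Golgi membranes, had 107, 114 and 104 CPM in controls and 91.5, 94.5 and 90.1 CPM in knockouts. The groups did not overlap, but the interval included 0, at -0.24 ± 0.12 (log2 and SE; interval -0.51 to 0.03; adjusted p = 0.322 in edgeR's test). Exons of Arf4 overlap Pde12 on the other strand over 14.6% of their length, and Pde12 was itself at -0.45 ± 0.15 (adjusted p = 0.156). Copa, the alpha subunit of the COPI coat, had 184, 189 and 200 CPM against 179, 171 and 169 CPM (-0.14 ± 0.12). Copb1, a beta subunit, hardly varied, with 75.5 to 77.9 CPM in controls and 73.9 to 76.8 CPM in knockouts (-0.03 ± 0.11). Arfgap3, which turns off ARF GTPases on COPI vesicles, was at -0.24 ± 0.17. Of the KDEL receptors, which catch ER proteins that have escaped to the Golgi, Kdelr1 was at -0.16 ± 0.14 and Kdelr2 at -0.14 ± 0.15, both with overlap.

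Kdelr3 had 0, 5 and 4 counts in controls and 1, 3 and 8 in knockouts. Most of these values are near the limit of 3 counts, so no difference was detectable at this depth and no fold is given. Kdelr1 and Kdelr2 stood at 65.6 ± 3.48 and 47.7 ± 2.65 TPM in controls and 60.03 ± 1.42 and 44.3 ± 2.81 TPM in knockouts (SD, n = 3 each), and their TPM ratio was 1.24 to 1.54 over the 6 libraries.

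Per transcript length the members covered a wide range. Sec61b was the most abundant, at 227 ± 14.6 TPM in controls and 216 ± 18.5 TPM in knockouts (SD, n = 3 each). Dad1 (183 ± 27.2 and 182 ± 6.597 TPM), Ssr4 (149 ± 19.6 and 163 ± 12.9 TPM), Ssr2 (116 ± 12.9 and 104 ± 1.55 TPM) and Mcfd2 (113 ± 26.1 and 106 ± 12.1 TPM) followed. Within the channel, Sec61b mRNA stood at 3.81 to 5.35 times that of Sec61a1 in the 6 libraries, though their proteins form a complex together. At the low end, apart from Kdelr3, were Arfgap3 (3.51 ± 0.741 and 2.99 ± 0.483 TPM) and Srp54a (7.28 ± 0.355 and 5.52 ± 0.373 TPM). TPM depends on how all transcripts of a library are distributed, and it is used here only to compare genes within libraries.

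**Figure D3:**
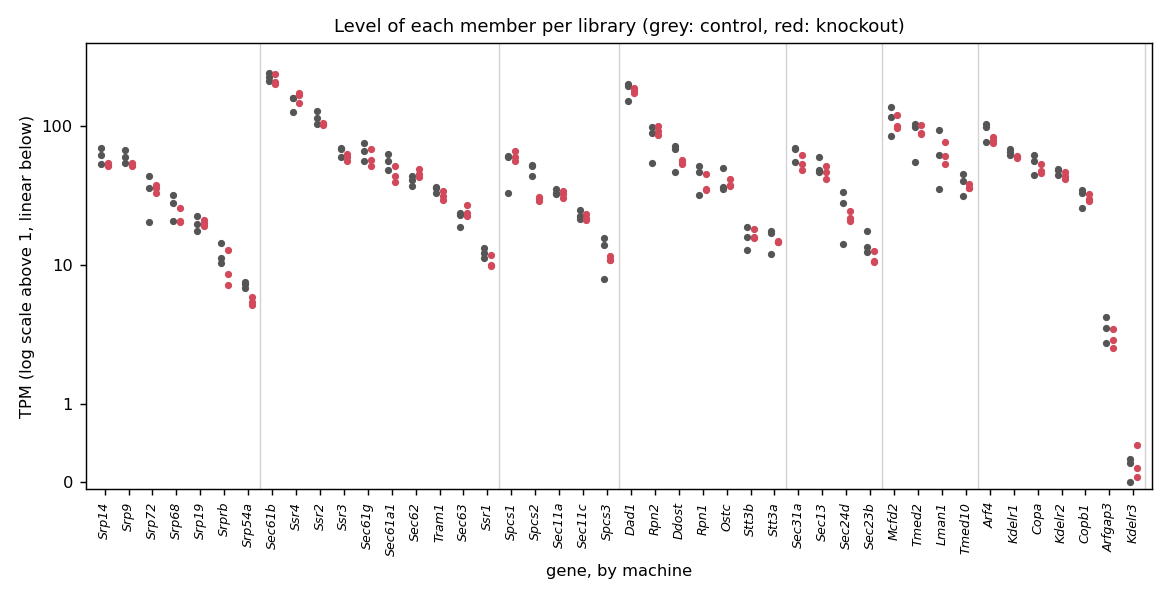
TPM of each member in every library (y axis, logarithmic above 1 and linear below), ordered by level within SRP, translocon, signal peptidase, oligosaccharyltransferase, COPII coat, cargo receptors and retrieval genes, from left to right; grey points are controls and red points knockouts. Sec61b leads at over 200 TPM, Kdelr3 is near 0, and the colours overlap in most genes.

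Libraries of the same group also differed among themselves. The median SD of log2 CPM over the members was 0.190 in controls and 0.0852 in knockouts, and it was larger in controls for 37 of 43 members (86.05%, against 70.5% of all tested genes). Control replicate 1 was the highest library in 17 members and the lowest in 8. It stood above the mean of the other controls most in Sec61g (1.56 times), Srp9 (1.501 times), Ssr4 (1.44 times), Sec11c (1.44 times) and Sec62 (1.42 times). It stood below them most in Sec24d (0.59 times), Srp72 (0.66 times), Lman1 (0.67 times), Spcs3 (0.69 times) and Spcs1 (0.70 times). Across the 43 members, rho between transcript length and the deviation of a library was -0.36 in control replicate 1, 0.54 in control replicate 3 and 0.44 in knockout replicate 1, against 0.0023, -0.23 and -0.22 in control replicate 2 and knockout replicates 2 and 3. These correlations describe libraries, and the points share a library. The part of length in the members' differences was addressed only by the fit with the trend removed, given above. Lengths were those of the longest coding transcript, and some do not match the TPM. Dad1, set at 3491 bases, had 66.4 CPM and 183 TPM in controls, against 56.0 CPM and 227 TPM for Sec61b at 564 bases.

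**Figure D4:**
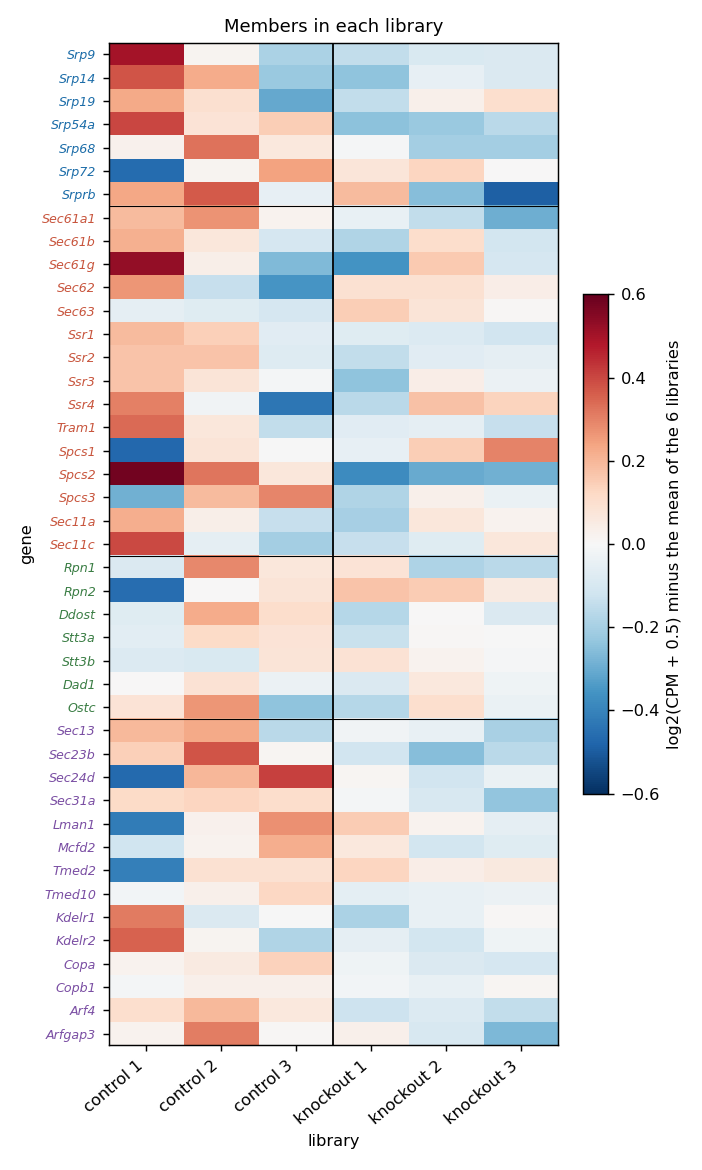
Deviation of log2(CPM + 0.5) from the mean of the 6 libraries for each tested member (rows, grouped and coloured by step) in each library (columns); colours saturate at 0.6. Control replicate 1 holds strong deviations in both directions. The knockout columns are mostly paler, more often blue than red, but Srprb in knockout replicate 3 is among the strongest negative deviations.

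The wider pathway was read from 158 further genes of the same route, all tested. Of these, 4 were called lower and 0 higher by edgeR (2.53% lower, against 0.715% of all genes). Because the lists were drawn up with earlier results of these data known, this share is a description and not a test. The called genes were Hspa5, Hyou1, Calr and Creld2, each an ER chaperone or a factor of protein folding. None belongs to a coat, the channel or the glycosyltransferase. Hspa5, the luminal chaperone BiP that pulls chains through the channel, had 573, 769 and 510 CPM in controls and 322, 255 and 282 CPM in knockouts (-1.11 ± 0.18, log2 and SE; adjusted p = 0.0241). Hyou1, its exchange factor, had 125, 228 and 132 CPM against 81.2, 50.1 and 52.5 CPM (-1.40 ± 0.27; adjusted p = 0.0419). For Calr, the glycoprotein chaperone calreticulin, the means were 865 ± 123 and 488 ± 50.2 CPM (SD, n = 3 each; adjusted p = 0.0413 in edgeR's test). Creld2, an ER stress gene of protein folding, was at 55.0, 134 and 43.8 CPM against 25.2, 18.1 and 15.3 CPM (-1.99 ± 0.39; adjusted p = 0.0451). Each of the 4 had log2 fold changes beyond every value among the 43 members. The difference between them and the members as groups was not tested.

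Apart from these 4, no gene of the lists was called. The 26 further genes of the translocon and of membrane insertion, Hspa5 and Hyou1 included, had a median of 0.05, the 17 genes of glucose trimming and glycoprotein folding, Calr included, 0.14, and the 3 further SRP genes -0.02. Of 36 further genes of the oligosaccharyltransferase and of the lipid-linked glycan supply, 0 passed and the median was -0.09. There were 10 with lower values at an unadjusted p under 0.05 in edgeR's test (27.8%, against 9.26% of all genes) and 2 with higher values. The lowest p belonged to Gmppa (-0.66 ± 0.15; adjusted p = 0.0651), which regulates the synthesis of GDP-mannose, Magt1 (-0.51 ± 0.15; adjusted p = 0.117), an oxidoreductase subunit of the Stt3b enzyme, and Gmppb (-0.81 ± 0.24; adjusted p = 0.118), the GDP-mannose synthesis enzyme. Further COPI genes numbered 14, with 0 called, 11 negative and a median of -0.14. Of 18 further COPII genes 0 were called and 10 were positive, with a median of 0.09. Of 25 tethers and SNAREs 0 were called, and the median was -0.07. The list of 19 further cargo receptors holds Creld2, which is not a cargo receptor itself, and no other gene of it was called. Next came Yipf5 (-0.45 ± 0.12; adjusted p = 0.089) and Tmed3 (-0.63 ± 0.17; adjusted p = 0.103). On the higher side, Tram2, a paralog of Tram1 with few counts in liver, had 0.872, 0.982 and 1.82 CPM in controls and 2.74, 2.69 and 2.78 CPM in knockouts (1.14 ± 0.30; adjusted p = 0.0957).

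Promoter sequences were searched for motifs through which ATF6 and XBP1 are known to act. RefSeq windows (GRCm38.p6, 250 bases before to 50 after a start) were found for 33 of the 44 members, in 36 windows. The ER stress response element, ERSE, was searched on both strands as CCAAT, any 9 bases, then CCACG, so that it contains a CCAAT box. It was in 0 of the 36 windows and in 0.119% of all 32851. A shorter form, ERSE-II (ATTGG, any 1 base, then CCACG), was also in 0 of 36, against 0.0365% of all windows. At such low shares 0 of 36 is near the background, and only exact letter matches were counted. These counts therefore do not tell whether the members lack such elements. The unfolded protein response element, UPRE, searched on both strands as TGACGTGG, was in 3 of the 36 windows against 0.676% of all. Those 3 are printed here, 60 bases up to the start site, with the motif in capitals. They come from chr3:123267436-123267495 (plus strand), chr7:114254681-114254740 (minus strand) and chr15:79516348-79516407 (plus strand), and the last pair holds the motif on the opposite strand.
Sec24d: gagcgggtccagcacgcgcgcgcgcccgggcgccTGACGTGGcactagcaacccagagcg
Copb1: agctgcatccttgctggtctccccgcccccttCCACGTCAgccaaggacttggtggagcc
Kdelr3: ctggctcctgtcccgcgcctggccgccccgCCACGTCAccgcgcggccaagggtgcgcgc

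Windows of 3 of the 4 called genes, those in which the search found an ERSE, are shown for comparison (no window of Hyou1 was searched), with both arms of the ERSE in capitals. They are 60 bases from chr2:34772005-34772064 (plus strand), chr8:84847054-84847113 (minus strand) and chr15:88819500-88819559 (plus strand), and in Calr and Creld2 the element is on the opposite strand.
Hspa5: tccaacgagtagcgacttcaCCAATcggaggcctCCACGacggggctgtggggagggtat
Calr: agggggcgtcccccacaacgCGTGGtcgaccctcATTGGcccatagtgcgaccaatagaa
Creld2: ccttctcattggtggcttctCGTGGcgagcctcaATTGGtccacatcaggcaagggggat
Of the members with the UPRE, Sec24d was at -0.14 ± 0.20, Copb1 at -0.03 ± 0.11 (log2 and SE), and Kdelr3 had too few counts. The genes with the ERSE shown were at -1.11, -0.83 and -1.99, but they were picked because edgeR called them lower. An ERSE was found in 39 windows in all, and fold changes of the other genes among them were not read. These values therefore do not describe genes with an ERSE in general. A match of letters is a description and does not show that a factor binds there.

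Bulk liver also holds cells other than hepatocytes, and fewer cells of a type and less RNA per cell cannot be told apart in these data. Markers of 10 cell types were read beside the members. Plasma cells are rich in secretory machinery. The summed level of 10 B and plasma cell markers, none at 0 in all libraries, was 18.7 to 78.5 CPM in controls and 6.71 to 9.56 CPM in knockouts, with 1 of 6 tested genes called lower, Jchain. For antigen-presenting cells (8 markers, MHC class II included) it was 313 to 828 CPM against 153 to 189 CPM, with 4 of 6 tested called lower. The 12 T and NK cell markers summed to 14.2 to 23.8 CPM against 6.93 to 10.001 CPM, with 0 of 10 called and 7 lower at an unadjusted p under 0.05. In each of these lists control replicate 2 had the highest sum. The 12 Kupffer cell and macrophage markers summed to 596 to 871 CPM in controls and 544 to 620 CPM in knockouts, with overlap and 0 called. All 12 were negative (median log2 fold change -0.35), and 5 were lower at an unadjusted p under 0.05. Neutrophil markers summed to 5.17 to 7.75 CPM in controls and 3.75 to 5.10 CPM in knockouts, without overlap, with 0 of 2 tested called and 1 lower at an unadjusted p under 0.05. Stellate cell and fibroblast markers (0 of 10 called, 2 lower at an unadjusted p under 0.05) and cholangiocyte markers (0 of 5 called) had overlapping sums. Hepatocyte markers (0 of 9 called, 1 lower at an unadjusted p under 0.05 in edgeR's test) likewise had overlapping sums, with a median log2 fold change of 0.02. Of 10 endothelial markers 1, Lyve1, was called lower. Pancreatic acinar markers were low throughout, with Cpa1 at 21 counts in control replicate 3 and 0 in every other library. Of the 2 acinar markers tested, 0 were called and 1 was higher in knockouts at an unadjusted p under 0.05 in edgeR's test. The part of these cells in the members' differences was not tested.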

How the data were processed

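RNA-seq was made from liver of 3 knockout and 3 control samples. Per the labels' protocols, TRIzol-extracted RNA was enriched with oligo(dT) and copied from random hexamers. HISAT2, Bowtie2, RSEM 1.3.1 and the build GRCm38 are named per the submitters' processing notes; the order of steps and strand setting are not stated there. The authors deposited, per the file headers, estimated counts, FPKM and TPM for each gene and library, and the log2 fold change, p-value and q-value of their own DESeq2 comparison.

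Estimated counts (4.55% to 4.98% of values differed from a whole number by over 0.01) were rounded, filtered with filterByExpr (12173 genes left), scaled by TMM and tested in a genotype-only model by edgeR's quasi-likelihood F test (version 4.0.16, under R 4.3.3). P-values were adjusted by Benjamini-Hochberg over all tested genes, with a threshold of 0.05. SEs and 95% intervals were derived from the F statistic and its degrees of freedom. CPM are scaled by TMM factors. Fold change intervals include the spread between libraries, whereas floors of counts cover counting error only, since reads amplified by PCR and lacking molecular identifiers can repeat a molecule. Several of the fits were also run on simulated counts that had the same dispersion in both groups and no length trend. The libraries here differed in both respects, so that run does not show how the fits perform on them. Columns were matched to samples by group and number; their names call the floxed controls wild type.

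The members, lists and tests were chosen with earlier results of these data known. Values in every library are given for called members and the 3 with the smallest p in each step, and the members with the highest and lowest log2 fold change in each step are named. Of other pathway genes, called genes and at most the 3 with the smallest p per list are named; further members with values by library, the genes named for overlapping exons, the Srp54 copies and the marker genes were chosen after their values were seen. The alternatives comprised no low-count filter, a minimum of 1 CPM in 3 libraries, scaling by upper quartile or by DESeq2 size factors, a replicate block, the Wald test of DESeq2 1.42.0, limma-voom (limma 3.58.1), limma on log2(FPKM + 1) and log2(FPKM + 0.1), an adjusted p of 0.1, removal of length and GC trends library by library (mgcv 1.9.3; GENCODE M21 longest coding transcript, found for 98.1% of tested genes and all 43 members), and each library left out. Summing the Srp54 copies was chosen after seeing the data. Promoters are RefSeq sequences of GRCm38.p6.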

Additional observations from a re-analysis of the deposited data

How the results depend on the processing

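No member was called higher under any alternative tried, and the count called lower was 0 in the edgeR test of the report. It was 1, Spcs2 each time, with no low-count filter, with the DESeq2 Wald test and at an adjusted p of 0.1 (where 4.21% of all genes passed), and 0 to 1 when single libraries were left out, 1 being without control replicate 3. The members' median log2 fold change of -0.14 ran from -0.19 to -0.09 over the other settings and from -0.20 to -0.10 with single libraries left out. The median of all tested genes moved as well. It was -0.059 with upper-quartile scaling, where the members were at -0.19, and -0.0029 with the length and GC trend removed, where they were at -0.09. Over all genes, 181 calls became 330 with no low-count filter, 634 with DESeq2, 110 on log2(FPKM + 1), 513 at an adjusted p of 0.1, 291 with the length and GC trend removed, and 43 to 668 with single libraries left out (668 without control replicate 3, 361 without control replicate 1 and 43 to 77 without any of the others); the cause was not tested. Of the 43 members, 14 changed sign in at least 1 of 17 settings and 29 in none. Among the 14 were Srp72 (range -0.065 to 0.27 with single libraries left out) and Tmed2 (-0.017 to 0.22), both without control replicate 1, Srp19 (4 settings), Lman1 and Sec11a (3 each), and Dad1, Ostc and Sec11c (2 each); Kdelr2, Mcfd2, Sec24d, Sec61b, Sec61g and Ssr4 did so in 1. A replicate block left 87 genes called in all, 0 of them members, with Spcs2 at an adjusted p of 0.158. Deviations of same-numbered libraries correlated at -0.16, -0.079 and -0.076, which gives no sign that the number pairs the samples but cannot exclude it. Precision was limited by 3 libraries per group and by the spread among controls. Only Kdelr3 had too few counts to be tested. Counting error also adds to the spread of the least counted tested members, such as Arfgap3 with 88 to 149 counts.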
